A study of Mus musculus with 9 samples.

Results

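The ADAMTS aggrecanases and their relatives were followed in cultured mouse articular chondrocytes, as the 10 genes *Adamts1*, *Adamts4*, *Adamts5*, *Adamts6*, *Adamts7*, *Adamts8*, *Adamts9*, *Adamts12*, *Adamts15* and *Adamts16*, chosen by name from the 55471 genes listed. Each symbol matched 1 gene identifier. The chondrocytes came from the knee joint surfaces of wild-type mice on postnatal day 5, were grown for 3 days and were infected with adenovirus for 2 h at a multiplicity of infection (MOI) of 400. The groups were Control (a control adenovirus per the study's methods), Ad-OSCAR (adenovirus carrying OSCAR, an immune receptor for collagen) and Ad-OSCAR + 5-ASA (the same virus, with 5-ASA, an anti-inflammatory drug also called mesalazine, added after 36 h), with 3 cultures each. The virus forces *Oscar* expression from outside its own gene, so the cultures model receptor excess in isolated cells and not joint tissue. Per the study's methods every group, Control included, was grown on plates coated with a collagen peptide that OSCAR binds, and Control received no 5-ASA, so 5-ASA was tested in cells with the OSCAR virus alone. The labels do not say whether the cultures of a group came from separate animals, and p-values then measure only the spread between these cultures, which may be technical.

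ADAMTS enzymes are secreted zinc metalloproteases with thrombospondin repeats that cut proteins of the extracellular matrix. ADAMTS4 and ADAMTS5 are the classic aggrecanases, which cut aggrecan, the proteoglycan that lets cartilage bear load, and ADAMTS5 is the main aggrecanase of mouse cartilage. ADAMTS1, ADAMTS8, ADAMTS9 and ADAMTS15 can cut aggrecan or its relative versican, whereas ADAMTS7 and ADAMTS12 are known for cutting cartilage oligomeric matrix protein (COMP). ADAMTS6 and ADAMTS16 are less studied and act on other matrix proteins such as fibronectin and fibrillin.

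The coding sequence of the zinc-binding active site, which the choice of genes did not use, is shown because it is the part that makes these proteins proteases and because it orders the genes by likeness. The stretch was read 5′ to 3′ from the longest coding transcript of each gene in GENCODE M21 (build GRCm38), and the capitals mark the codons of the 3 histidines that bind zinc and of the catalytic glutamate.
*Adamts1*: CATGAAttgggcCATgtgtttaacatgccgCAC
*Adamts15*: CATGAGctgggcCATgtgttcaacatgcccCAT
*Adamts9*: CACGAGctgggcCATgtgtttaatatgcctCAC
*Adamts4*: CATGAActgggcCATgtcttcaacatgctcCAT
*Adamts8*: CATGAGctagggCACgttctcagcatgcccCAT
*Adamts5*: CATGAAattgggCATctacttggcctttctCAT
*Adamts6*: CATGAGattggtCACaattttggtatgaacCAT
*Adamts16*: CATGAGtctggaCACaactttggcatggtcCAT
*Adamts7*: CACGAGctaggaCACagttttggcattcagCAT
*Adamts12*: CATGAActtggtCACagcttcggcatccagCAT
Every gene held the motif once, and in every gene an intron split these 33 bases between a pair of neighbouring exons. *Adamts4* and *Adamts15* shared 30 of the 33 bases, and any 2 of *Adamts1*, *Adamts9* and *Adamts15* shared 28. *Adamts7* and *Adamts12*, the pair known for cutting COMP, shared 26, as did *Adamts6* and *Adamts16*. The stretch of *Adamts5* lay in exons 2 and 3 of 8 (chr16:85878015-85887826, minus strand) and that of *Adamts1* in exons 3 and 4 of 9 (chr16:85799191-85799545, minus strand).

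In the genome *Adamts1* (ENSMUSG00000022893.14, chromosome 16 from 85793827 to 85803113) and *Adamts5* (ENSMUSG00000022894.6, chromosome 16 from 85856173 to 85901828) stood on the same strand, 53059 bases apart, with 0 protein-coding genes between them. *Adamts15* and *Adamts8* were neighbours on chromosome 9 on opposite strands, 20109 bases apart, also with 0 protein-coding genes between them. *Adamts4* lay on chromosome 1 from 171250421 to 171260637. *Adamts7* (chromosome 9 from 90163069 to 90208071) shared exon sequence with *Tbc1d2b* on the other strand. The library kit keeps the strand, but whether the counting used it is not given in the sources used here. In the comparison of Ad-OSCAR and Control given below, *Tbc1d2b* had a log2 fold change of -0.08 (adjusted p = 0.16, quasi-likelihood test of edgeR) while *Adamts7* rose. Read in their own direction, transcripts of the 10 genes shared little sequence with other genes. At most 0.356% of the 31-base words of any of them were found in a transcript outside the 10. Words were not compared with the other strand, so overlaps such as that of *Adamts7* and *Tbc1d2b* are not in this share.

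Levels are given as TPM (the relative abundance of transcripts, scaled to the same total in each culture, which allow for gene length and serve to compare genes) or as CPM (counts scaled by library size with TMM factors, which serve to compare groups). Total counts were 19733448 to 28192740 per culture. *Oscar* was at 0.19 to 0.33 TPM in Control, 6549 to 7127 TPM in Ad-OSCAR and 2806 to 3654 TPM in Ad-OSCAR + 5-ASA, so the groups carried the transgene as labelled. It was lower with 5-ASA than without (log2 fold change -0.97, adjusted p = 1.76e-08, edgeR), and the part of this difference in any change with 5-ASA given below was not tested. *Saa3* took 3.12% to 3.22% of TPM in Control, 12.7% to 13.3% in Ad-OSCAR and 14.3% to 15.2% with 5-ASA, and TPM sum to a fixed total in each culture. The 8 chondrocyte markers summed to 13958 to 15894 TPM in Control, 876 to 1009.9 in Ad-OSCAR and 974 to 1159.7 with 5-ASA. The 8 macrophage and osteoclast markers summed to 44.5 to 48.1, 69.7 to 71.9 and 57.0 to 59.6 TPM in the same order of groups. Of the 6 that were tested, 4 were higher, 1 was lower and 1 was not called in Ad-OSCAR against Control. Among the higher were *Cd68* (2.85 to 4.64 TPM in Control and 13.2 to 13.8 TPM in Ad-OSCAR) and *Cd14* (11.9 to 13.5 and 27.9 to 28.2 TPM). The lower one was *Acp5* (17.4 to 18.2 and 11.1 to 12.5 TPM), and *Csf1r* was not called. *Ptprc*, the common leukocyte marker, was near 0, at a median of 0.02, 0.02 and 0.03 TPM, and *Adgre1* was at 0 in every Control culture. The 5 endothelial markers were low and summed to 0.16 to 0.54 TPM in Control, 0.81 to 1.37 in Ad-OSCAR and 0.61 to 0.67 with 5-ASA, and *Tek*, the 1 that was tested, was higher in Ad-OSCAR (log2 fold change 1.88, adjusted p = 3.2e-06, edgeR). The 6 markers of fibroblasts and synovial lining summed to 4918 to 5070.2, 4773 to 5311 and 5312 to 5462 TPM. Their sum hides opposite changes, as *Col3a1* and *Prg4* were higher and *Col1a1*, *Thy1*, *Pdgfra* and *Dpt* lower in Ad-OSCAR than in Control (edgeR). The markers of smooth muscle and pericytes summed to 272 to 295, 58.0 to 66.3 and 70.7 to 80.1 TPM, and those of osteoblasts to 30.1 to 35.8, 5.72 to 7.6 and 11 to 12.5. Of the 5 markers of smooth muscle and pericytes, 1 was higher and 2 were lower in Ad-OSCAR than in Control (edgeR). *Acta2* and *Cnn1* fell, whereas *Rgs5* rose (log2 fold change 2.89, adjusted p = 5.31e-15, edgeR). The part of cell make-up in the ADAMTS values was not tested, and in bulk RNA fewer cells of a type and less RNA per cell cannot be told apart.

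OSCAR overexpression came with a higher summed level of the 10 genes and another order among them. The sum was 215, 216 and 217 TPM in the Control cultures, 452, 439 and 469.9 TPM in the Ad-OSCAR cultures and 472, 465 and 498 TPM with 5-ASA. *Adamts1* and *Adamts5* together made up 84.2% to 85.4% of it in Control and 86.8% to 88.5% in the groups with OSCAR. In Control the order was *Adamts1*, *Adamts5*, *Adamts9*, *Adamts7*, *Adamts4* and *Adamts12*, with no overlap between neighbours over the 3 cultures. In Ad-OSCAR *Adamts7* took rank 3, and *Adamts4* (13.7 to 15.5 TPM) could not be told from *Adamts9* (14.3 to 15.1 TPM) by their spread. With 5-ASA *Adamts5* (208 to 217 TPM) overlapped *Adamts1* (204 to 221 TPM). The *Adamts5* to *Adamts1* ratio of TPM was 0.711, 0.696 and 0.657 in Control, 0.881, 0.837 and 0.866 in Ad-OSCAR and 1.01, 1.02 and 0.981 with 5-ASA.

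**Figure D1:**
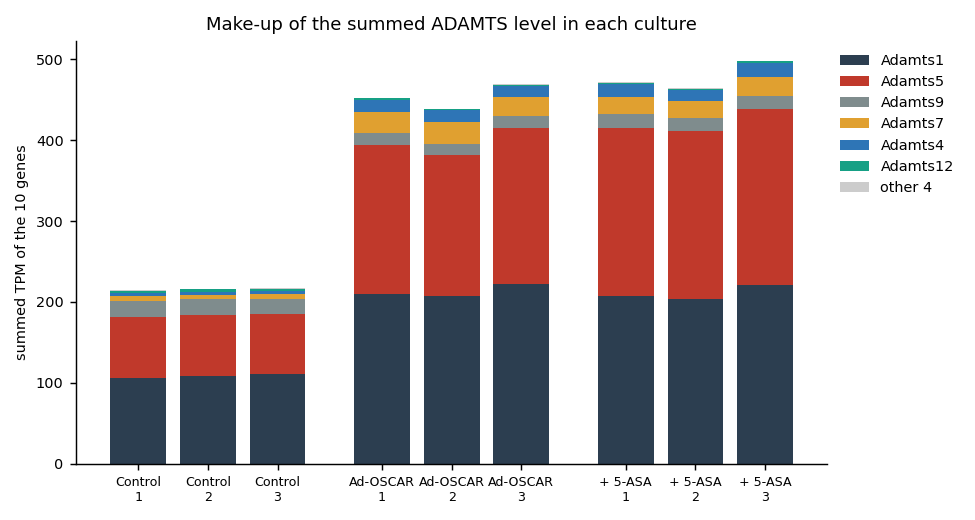
Stacked bars show, for each of the 9 cultures, the TPM of the 10 ADAMTS genes added up, split by gene (the other 4 are *Adamts6*, *Adamts8*, *Adamts15* and *Adamts16*). The 3 Control cultures reached 215 to 217 TPM and the 6 Ad-OSCAR cultures with or without 5-ASA 439 to 498 TPM, most of it *Adamts1* and *Adamts5*.

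Of the 10 genes, 7 had enough counts to be tested and *Adamts8*, *Adamts15* and *Adamts16* did not. Ad-OSCAR against Control called 5 of the 7 higher (*Adamts1*, *Adamts4*, *Adamts5*, *Adamts6* and *Adamts7*) and 2 lower (*Adamts9* and *Adamts12*) at an adjusted p below 0.05 (edgeR quasi-likelihood test with Benjamini-Hochberg adjustment over 15362 genes, called edgeR from here on). Of all genes tested, 32.7% were called higher and 32.2% lower, so a call by itself was common in this comparison. Under the criteria of the study, a log2 fold change beyond 1.5 with an adjusted p below 0.05, 4.57% of genes were higher and 5.39% lower, and *Adamts4* and *Adamts7* were the 2 of the 7 that passed. The median log2 fold change of the 7 genes was 0.95, against 0.022 for all genes tested.

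*Adamts5*, the main aggrecanase of mouse cartilage, was at 486, 484 and 473 CPM in Control and at 1151, 1121 and 1203 CPM in Ad-OSCAR. The lowest Ad-OSCAR culture stood well over the highest Control culture. The rise was 2.41-fold (log2 fold change 1.27, standard error 0.04, adjusted p = 5.14e-15, edgeR). *Adamts5* has 1 annotated transcript, so its TPM cannot move with isoform mix, and TPM gave 74.7 ± 1.37 in Control and 184 ± 9.43 in Ad-OSCAR (SD, n = 3 each).

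*Adamts4*, the other classic aggrecanase, was far lower in every culture. It was at 10.3, 9.86 and 9.94 CPM in Control and 38.1, 37.0 and 33.8 CPM in Ad-OSCAR, with no overlap. Its rise of 3.61-fold (log2 fold change 1.85, standard error 0.075, adjusted p = 1.86e-13, edgeR) came from a low base. *Adamts5* exceeded it 18.1, 19.1 and 18.7 times in TPM in Control and still 11.9, 11.9 and 14.1 times in Ad-OSCAR.

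*Adamts1*, a protease that cuts versican and, less well, aggrecan, had the highest TPM in each Control and Ad-OSCAR culture. It went from 287, 285 and 303 CPM to 551, 559 and 577 CPM, and every Ad-OSCAR culture was over every Control culture. The rise was 1.93-fold (log2 fold change 0.95, standard error 0.042, adjusted p = 7.58e-13, edgeR).

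*Adamts7* and *Adamts12*, which both encode proteases known for cutting COMP, moved in opposite directions. *Adamts7* was at 15.9, 13.4 and 15 CPM in Control and 61.0, 65.3 and 58.2 CPM in Ad-OSCAR, and its rise of 4.17-fold (log2 fold change 2.06, standard error 0.08, adjusted p = 8.94e-14, edgeR) was the largest of the 7. *Adamts12* was at 13.9, 13.5 and 11.9 CPM in Control and 6.51, 7.3 and 7.02 CPM in Ad-OSCAR. It fell by 0.92 on the log2 scale (standard error 0.092, adjusted p = 6.9e-08, edgeR), with no overlap between the groups. In CPM, which does not allow for length, the pair started at like values in Control and ended far apart.

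*Adamts9*, a versican-cutting protease, had rank 3 by TPM in Control, and it fell while *Adamts1* and *Adamts5* rose. It was at 85, 83.1 and 85.5 CPM in Control and 61.1, 58.5 and 58.5 CPM in Ad-OSCAR, a fall of 0.51 on the log2 scale (standard error 0.046, adjusted p = 1.73e-08, edgeR) with no overlap. *Adamts6* was low, at 38, 40 and 35 counts in Control and 85, 66 and 76 in Ad-OSCAR. Its 1.79, 1.64 and 1.85 CPM in Control and 2.88, 2.71 and 2.76 CPM in Ad-OSCAR did not overlap, and the rise was 1.59-fold (log2 fold change 0.67, standard error 0.18, adjusted p = 0.00366, edgeR).

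**Figure D2:**
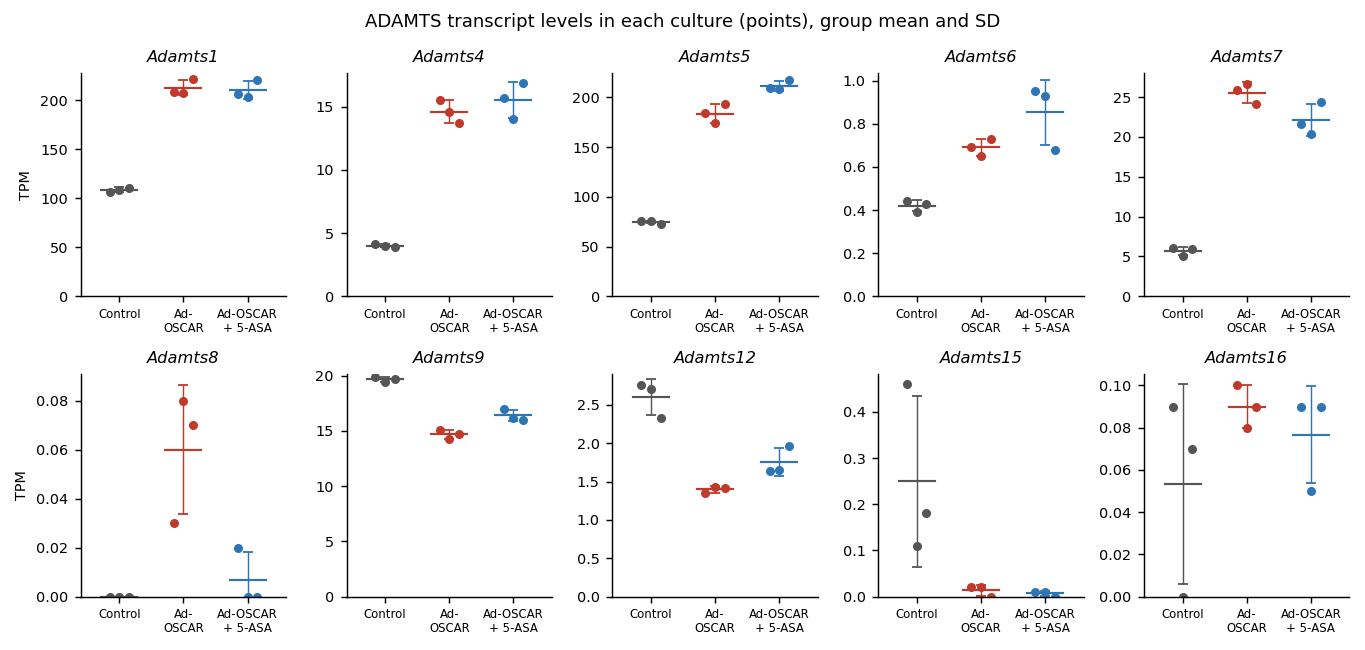
TPM of each of the 10 genes (a panel each, axis from 0) in the Control, Ad-OSCAR and Ad-OSCAR + 5-ASA cultures, with points for cultures, a line for the mean and bars for the SD (n = 3). *Adamts1*, *Adamts4*, *Adamts5*, *Adamts6* and *Adamts7* were higher and *Adamts9* and *Adamts12* lower in both groups with OSCAR than in Control, and the panels of *Adamts8*, *Adamts15* and *Adamts16* rest on 12 counts or fewer in any culture.

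The 3 untested genes were near the limit of counting, for which 0 counts in a library allow up to 3. *Adamts15*, a versican-cutting protease next to *Adamts8* in the genome, had 6, 9 and 12 counts in Control, 2, 2 and 0 in Ad-OSCAR and 1, 1 and 0 with 5-ASA. Its Control cultures were all above the others, and the summed and scaled counts were 8.52 times as high in Control as in Ad-OSCAR, with an exact 95% interval of 2.97 to 33.5 that covers counting error only. *Adamts8*, which also has aggrecanase activity, had 0 counts in each Control culture, 2, 4 and 4 in Ad-OSCAR and 1, 0 and 0 with 5-ASA, too few for a fold. *Adamts16* had 5, 0 and 4 counts in Control, 7, 4 and 7 in Ad-OSCAR and 7, 4 and 7 with 5-ASA, so its groups overlapped. Its Ad-OSCAR to Control ratio was 1.58, with an exact 95% interval of 0.676 to 4.0, and a difference was not detectable at this depth.

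Adding 5-ASA lowered 0 of the 7 genes past the threshold against Ad-OSCAR by edgeR, DESeq2 or limma, and 4 were called higher by edgeR (*Adamts4*, *Adamts5*, *Adamts9* and *Adamts12*). Of all genes tested, 10.4% were called higher and 7.38% lower in this comparison. Before adjustment *Adamts7* alone was lower at p below 0.05, and it passed after adjustment under the 3 other settings of edgeR given with its values. The study's threshold for 5-ASA, a fold change beyond 1.5 with an unadjusted p below 0.05, was set for 5-ASA-treated cells against Control. Carried over to this comparison, it took in 2.27% of genes as higher and 1.87% as lower, and 0 of the 7. The median log2 fold change of the 7 was 0.18, against -0.0044 for all genes tested. In TPM with limma, which changes both the scale and the test, *Adamts5* was the 1 gene of the 7 still called. With edgeR on library totals alone 4 were called, *Adamts5*, *Adamts9* and *Adamts12* as higher and *Adamts7* as lower.

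*Adamts5* was at 1426, 1410.5 and 1439.9 CPM with 5-ASA, all above the 1121 to 1203 CPM of Ad-OSCAR. The difference was 1.23-fold (log2 fold change 0.30, standard error 0.039, adjusted p = 3.14e-05, edgeR), and the groups did not overlap in TPM either (208 to 217 with 5-ASA and 174 to 193 without). *Adamts4* was at 42.2, 37.8 and 43.9 CPM with 5-ASA, and these overlapped the 33.8 to 38.1 CPM of Ad-OSCAR. The difference was just past the threshold (log2 fold change 0.18, adjusted p = 0.0444, edgeR). A fit that blocks on replicate number moved it to 0.053, and over all 19 fits it ranged from 0.00886 to 0.575.

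The 2 genes that OSCAR lowered moved toward Control with 5-ASA without reaching it. *Adamts12* was at 8.85, 8.86 and 9.88 CPM, all between the Ad-OSCAR and the Control cultures (log2 fold change 0.41, standard error 0.094, adjusted p = 0.00515, edgeR). *Adamts9* was at 71.1, 69.4 and 66.3 CPM, also between them (log2 fold change 0.22, standard error 0.046, adjusted p = 0.00288, edgeR). In TPM (limma) with a pseudocount of 0.1 neither was called, though the direction was kept. The log2 fold change was 0.3 for *Adamts12* (adjusted p = 0.204, limma) and 0.16 for *Adamts9* (adjusted p = 0.121, limma).

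*Adamts7* was at 54.6, 49.9 and 60.9 CPM with 5-ASA, overlapping the 58.2 to 65.3 CPM of Ad-OSCAR. Its log2 fold change was -0.16 (95% interval -0.3 to -0.02, adjusted p = 0.12, edgeR). It passed on library totals alone (log2 fold change -0.23, adjusted p = 0.0177, edgeR), without a filter on low counts and without 5-ASA replicate 3 (-0.23, adjusted p = 0.0233). *Adamts1* was at 596, 578 and 603 CPM with 5-ASA, a log2 fold change of 0.08 (95% interval -0.01 to 0.16, adjusted p = 0.237, edgeR). Its cultures lay above those of Ad-OSCAR in CPM and overlapped them in TPM. *Adamts6* was at 2.96, 3.47 and 2.37 CPM, a log2 fold change of 0.08 (95% interval -0.26 to 0.42, adjusted p = 0.805, edgeR).

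Against Control, the Ad-OSCAR + 5-ASA cultures called the same 5 genes higher and the same 2 lower, where 31.4% of all genes tested were higher and 31.8% lower. By the study's threshold for 5-ASA, which was set for this comparison, 5 of the 7 passed as higher (*Adamts1*, *Adamts4*, *Adamts5*, *Adamts6* and *Adamts7*) and 0 as lower, beside 14.6% and 15.3% of all genes tested. This comparison shares its Control cultures with that of Ad-OSCAR and is given beside it. The log2 fold changes were 2.04 for *Adamts4*, 1.90 for *Adamts7*, 1.57 for *Adamts5*, 1.02 for *Adamts1*, 0.74 for *Adamts6*, -0.29 for *Adamts9* and -0.52 for *Adamts12*. The *Adamts5* value of 1.57 had a standard error of 0.04 and an adjusted p of 3.47e-16 (edgeR). With 5-ASA the level of each risen gene was still above that of every Control culture, and that of *Adamts9* and *Adamts12* still below.

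**Figure D3:**
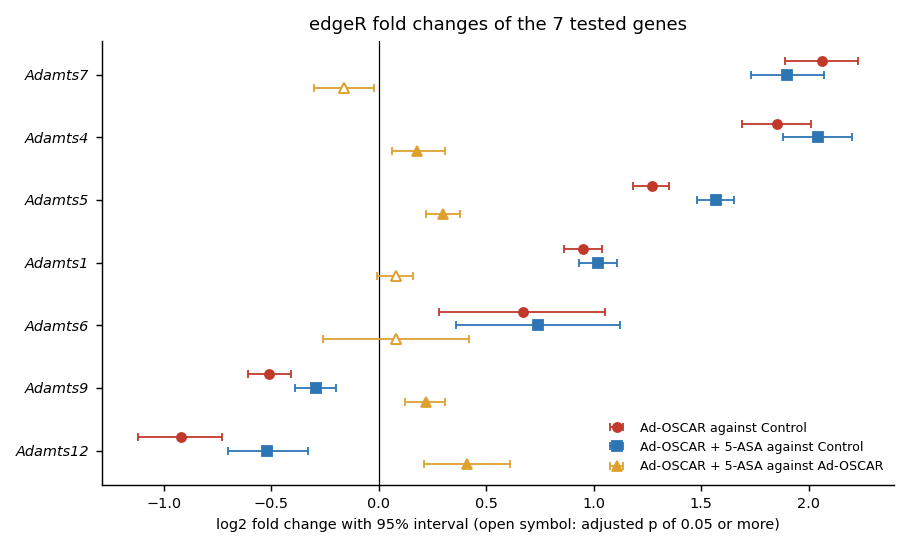
Log2 fold changes (horizontal axis) of the 7 tested genes in the 3 comparisons, with bars for the 95% interval of the edgeR fit and open symbols for an adjusted p of 0.05 or more. The points against Control run from 2.06 for *Adamts7* down to -0.92 for *Adamts12*, while those of Ad-OSCAR + 5-ASA against Ad-OSCAR lie between -0.16 and 0.41.

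The deposited mean transcript length, which follows the mix of isoforms that RSEM assigned, differed between groups for some of the genes. *Adamts6*, with 7 annotated transcripts, was at 6903, 7165 and 7242 bases in Control, 7312, 7072 and 6607 in Ad-OSCAR and 5050, 6025 and 5796 with 5-ASA. The 5-ASA cultures were shorter than all others, on 60 to 95 counts per culture. *Adamts9* was at 7213, 7309 and 7306 bases in Control, 7076, 6912 and 6933 in Ad-OSCAR and 6676, 6889 and 6824 with 5-ASA, with no overlap between any 2 groups. *Adamts7* was at 4485, 4579 and 4353 bases in Control and 4182, 4210 and 4295 in Ad-OSCAR, again with no overlap, and its 5-ASA cultures at 4123, 4003 and 4185 overlapped those of Ad-OSCAR. *Adamts4* was at 4360 to 4386 bases with 5-ASA, above its 4270 to 4359 in Control, although the ratio of means was only 1.01. The lengths of *Adamts12* and *Adamts1* overlapped among the groups. These lengths are described without a test, since 3 cultures against 3 allow no exact permutation p under 0.1 (two-sided), and isoform counts were not analysed here. The share of all genes whose lengths do not overlap between groups is not given here.

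**Figure D4:**
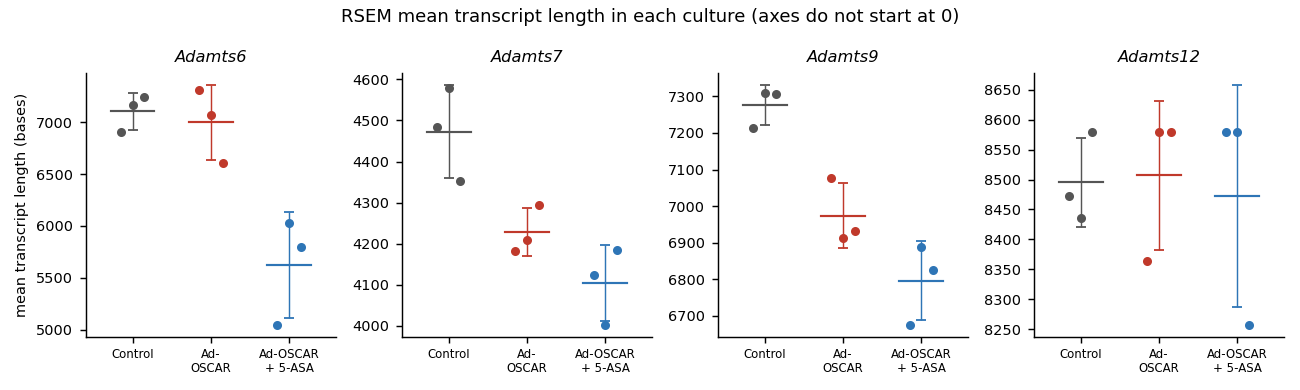
Mean transcript length in bases, as RSEM gave it, of *Adamts6*, *Adamts7*, *Adamts9* and *Adamts12* in each culture, with the mean and SD of each group (n = 3). The axes do not start at 0. *Adamts6* was shorter in the 5-ASA cultures (5050 to 6025 bases) than in the others (6607 to 7312 bases), and *Adamts12* overlapped in all groups.

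Genes of the substrates, inhibitors, activators, clearance and induction of these proteases were counted from lists, against the same shares of all genes called (32.7% higher and 32.2% lower for Ad-OSCAR against Control, 10.4% and 7.38% with 5-ASA). Of the substrates, 3 of 4 tested were lower and 1 higher in Ad-OSCAR. *Acan*, which encodes aggrecan, was at 576 to 654 TPM in Control and 7.1 to 8.06 in Ad-OSCAR (log2 fold change -6.38, adjusted p = 2.46e-21, edgeR). There were 8.7, 7.61 and 8.17 *Acan* transcripts for each *Adamts5* transcript in Control but 0.0417, 0.0464 and 0.0369 in Ad-OSCAR and 0.0434, 0.0409 and 0.048 with 5-ASA. *Comp* fell by 4.71 and *Bcan*, encoding brevican, by 3.47 on the log2 scale, whereas *Vcan*, which encodes versican, rose by 1.43 (adjusted p = 1.64e-13, edgeR), from 73.5 to 84.0 TPM to 218 to 249.9 TPM. With 5-ASA 2 substrates were called higher and 1 lower: *Acan* by 0.27, *Comp* by 0.41 and *Vcan* by -0.23.

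Of the inhibitors, 1 of 4 tested was higher in Ad-OSCAR and 3 were lower. *Timp3*, which encodes the tissue inhibitor that blocks ADAMTS4 and ADAMTS5, was at 1022 to 1115 TPM in Control, 103 to 109.7 in Ad-OSCAR and 181 to 191 with 5-ASA. The groups did not overlap. It fell by 3.35 on the log2 scale (adjusted p = 3.29e-19, edgeR) and with 5-ASA rose by 0.89 over Ad-OSCAR (adjusted p = 4.89e-09, edgeR). *Timp2* fell by 0.85 and *A2m*, the broad protease inhibitor alpha-2-macroglobulin, by 0.72, while *Timp1* rose by 0.41. With 5-ASA *Timp1* (0.17) and *Timp2* (0.18) were also called higher and *A2m* (-0.45) lower (edgeR), but in TPM *Timp2* had a log2 fold change of -0.0442.

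ADAMTS enzymes are made as inactive precursors that proprotein convertases cut, and of these 4 genes 1 was higher and 2 were lower in Ad-OSCAR. *Pcsk5* rose by 1.64 (adjusted p = 3.92e-14, edgeR), *Pcsk6*, known as an activator of aggrecanases in cartilage, fell by 3.49 (adjusted p = 5.29e-17, edgeR) and *Furin* fell by 0.49 on the log2 scale. With 5-ASA *Pcsk5* (0.21) and *Pcsk6* (0.50) were called higher and *Pcsk7* (-0.18) lower. Of the 6 genes of clearance and anchoring, 5 were higher and 1 lower in Ad-OSCAR. *Lrp1*, the endocytic receptor that removes ADAMTS5, rose by 0.43 and *Sdc4*, a heparan sulfate proteoglycan that binds ADAMTS5, fell by 0.41. With 5-ASA 2 of them were called higher, *Sdc4* (0.20) and *Sdc1* (0.13), and *Sulf2* (-0.20) was called lower. The call of *Sdc1* was lost with the replicate block and held in 5 of 19 fits.

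Of the genes of cytokines, receptors and factors that can induce aggrecanases, 8 of 10 tested were higher and 2 lower in Ad-OSCAR. *Il6* went from 71.9 to 94.2 TPM to 1591 to 1816 TPM (log2 fold change 4.32, adjusted p = 2.45e-18, edgeR) and *Il1a* from 0.05 to 0.13 TPM to 5.03 to 5.1 TPM (5.78, adjusted p = 2.71e-12, edgeR). *Il1r1*, the receptor of interleukin-1, fell by 1.48 (adjusted p = 4.7e-15, edgeR). With 5-ASA *Il1r1* (0.49) and *Osmr* (0.37), a receptor of oncostatin M, were called higher and *Il1a* (-0.42) and *Il6* (-0.21) lower (edgeR). *Il1b*, *Tnf* and *Osm* had too few counts to test. *Osm* was at 0 TPM in every culture. *Tnf* was at 0 TPM in Control, 0.42 to 0.59 in Ad-OSCAR and 0.09 to 0.12 with 5-ASA. *Il1b* was at 0, 0.06 to 0.67 and 0 to 0.2 TPM in the same order.

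Of the 9 other ADAMTS protease genes 6 were tested, with 1 higher and 5 lower in Ad-OSCAR. The procollagen proteinase genes *Adamts2* and *Adamts14* fell by 1.28 and 1.55, *Adamts20* fell by 2.32 (from 0.18 to 0.2 TPM to 0.01 to 0.06 TPM) and *Adamts10* rose by 0.27 on the log2 scale. With 5-ASA *Adamts2* (0.39), *Adamts14* (0.51) and *Adamts10* (0.21) were called higher. Of the 7 genes of ADAMTS-like proteins, which lack the protease, 6 were tested, with 2 higher and 4 lower. *Adamtsl3* fell by 3.92 and *Adamtsl1* by 2.57, and with 5-ASA *Thsd4* (0.63) was called higher and *Adamtsl5* (-0.17) lower (edgeR). The call of *Adamtsl5* was lost with the replicate block and held in 12 of 19 fits.

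**Figure D5:**
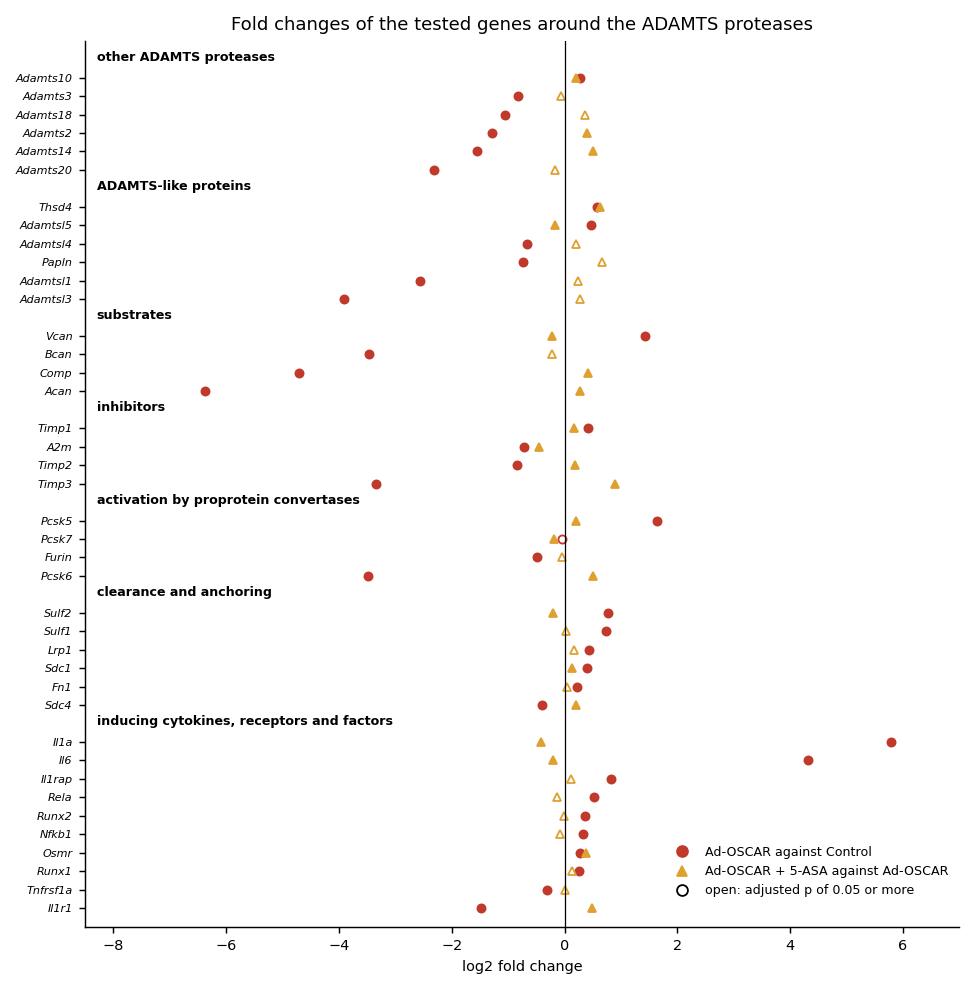
Log2 fold changes (horizontal axis) of the tested genes around the proteases, in the 7 groups named on the plot, for Ad-OSCAR against Control (circles) and Ad-OSCAR + 5-ASA against Ad-OSCAR (triangles), with open symbols for an adjusted p of 0.05 or more. Circles run from -6.38 for *Acan* to 5.78 for *Il1a*, and the largest triangle is *Timp3* at 0.89.

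As a description over all 9 cultures, the genes whose log2 CPM followed *Adamts4* most closely were *Epas1*, *Azin2* and *Pdgfa* (Pearson r = 0.998 for each). For *Adamts5* they were *Gbp6* (0.998), *Thbd* (0.997) and *Crispld1* (0.997). Such values are dominated by the step between Control and the other groups. *Adamts1* had r = 0.991 with *Adamts5*, its neighbour in the genome, and ranked number 101 among the 15362 genes tested.

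RefSeq promoters (build GRCm38.p6) were held for 3 of the 10 genes, and the 250 bases before the start are printed for *Adamts1*, which rose, and *Adamts12*, which fell the most of the 7. Capitals mark a match to TATAAA.
*Adamts1*: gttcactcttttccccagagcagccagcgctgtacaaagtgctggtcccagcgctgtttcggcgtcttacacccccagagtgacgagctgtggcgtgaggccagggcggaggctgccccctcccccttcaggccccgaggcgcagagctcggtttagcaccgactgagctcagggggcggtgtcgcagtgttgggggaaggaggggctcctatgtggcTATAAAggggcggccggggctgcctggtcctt
*Adamts12*: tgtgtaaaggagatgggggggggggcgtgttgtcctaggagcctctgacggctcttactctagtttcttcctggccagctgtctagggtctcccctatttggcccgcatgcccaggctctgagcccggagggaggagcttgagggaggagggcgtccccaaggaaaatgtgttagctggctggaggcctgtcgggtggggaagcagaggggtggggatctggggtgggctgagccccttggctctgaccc
The first lies at chr16:85803114-85803363 (minus strand) and the second at chr15:11064523-11064772 (plus strand). On both strands of the promoters of *Adamts1*, *Adamts9* and *Adamts12*, the letters TGANTCA (an AP-1 motif, in 6.75% of the 32851 promoters), TGTGGT (a RUNX motif, in 14%) and those of the NF-kB motif (in 17.6%) had 0 matches. TATAAA, in 12.4% of all promoters, began 32 bases before the start of *Adamts1*. A match or its absence in these windows says nothing of what binds there.

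The study's own primers for *Adamts5* mark which piece of the transcript a quantitative PCR would read.
forward: gccattgtaataaccctgcacc
reverse: tcagtcccatccgtaacctttg
Each matched 1 GENCODE transcript, the single one of *Adamts5*, in its coding part. The forward primer lay in exon 5 (chr16:85868616-85868637) and the reverse one across exons 6 and 7 of 8, for a product of 292 bases. The RNA sequencing values here count the whole gene.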

How the data were processed

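Poly(A) RNA from 9 cultures, 3 per group, was sequenced after a stranded mRNA library preparation. Per the labels, the authors' processing notes name FastQC, STAR 2.7.1a and RSEM 1.3.1 on GRCm38. The deposited gene tables hold the expected counts and TPM that RSEM gave the authors for each gene, summed over its transcripts, with a mean transcript length in bases. Whether reads were counted by strand is not given in the sources used here. The study's own comparisons used DESeq2. The labels give 3 days of culture before infection, an MOI of 400 and 36 h before 5-ASA. These differ from the study's methods, and the text used the labels.

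Groups were taken from the labels, and identifiers were matched to symbols for 55144 of 55471 genes. Expected counts were rounded to whole numbers, filtered with filterByExpr (15362 genes kept), scaled with TMM (factors 0.952 to 1.05) and tested with edgeR 4.0.16 (quasi-likelihood test, Benjamini-Hochberg adjustment, all 9 cultures in 1 fit, group as the only term) in R 4.3.3. The biological coefficient of variation was 5.11%. Depth was 19733448 to 28192740 counts per culture, and no replicates were copies (chi-square per degree of freedom 4.03 to 7.52). Intervals of edgeR values are 95%, and those of small counts are exact binomial intervals that cover counting error only.

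Alternatives were DESeq2 1.42.0, limma 3.58.1 on log2(TPM + 0.1) and log2(TPM + 1), RLE scaling, library totals alone, other count filters, 2 groups at a time, a replicate block and leaving out each culture. Every one of the 10 genes was named, and of the surrounding lists *Acan*, *Vcan*, *Comp*, *Timp3*, *Furin*, *Lrp1*, *Sdc4* and any gene with a log2 fold change beyond 1.5 and an adjusted p below 0.05 for Ad-OSCAR against Control, or an adjusted p below 0.05 for Ad-OSCAR + 5-ASA against Ad-OSCAR. The genes and lists were chosen with earlier results of these data known. The active-site sequences were added in coding DNA, since no protein table was used here, and the *Adamts1* promoter and the primers were added after the values were seen. Positions are those of GENCODE M21 on GRCm38.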

Additional observations from a re-analysis of the deposited data

Results flagged for a closer look

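*Adamts8* lay outside the tested genes because of its low counts, yet all 3 Ad-OSCAR cultures held more of its counts (10 in all, as 2, 4 and 4) than any Control culture, where it was at 0. With 5-ASA it had 1 count in 1 of 3 cultures. Without a filter on low counts its log2 fold change for Ad-OSCAR against Control was 4.69 (adjusted p = 0.0249, edgeR with Benjamini-Hochberg adjustment), a value that depends on how the fit treats 0 counts. DESeq2 gave an unadjusted p of 0.0476 and no adjusted p. Its neighbour *Adamts15*, which went from 27 counts in all in Control to 4 in Ad-OSCAR, passed under both (log2 fold change -2.98, adjusted p = 0.000758, edgeR without a filter, and -3.13, adjusted p = 0.00876, DESeq2).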

How the results depend on the processing

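For Ad-OSCAR against Control and for Ad-OSCAR + 5-ASA against Control, each of the 7 tested genes kept its direction and its call in each of 19 fits at an adjusted p below 0.05, with 7 called in each leave-one-out fit. The criteria of the study left 2 called for Ad-OSCAR against Control and 5 for Ad-OSCAR + 5-ASA against Control, and 0 when carried over to Ad-OSCAR + 5-ASA against Ad-OSCAR. For this last comparison, 1 gene, *Adamts5*, was called by limma in TPM with either pseudocount, against 4 in the main analysis and 3 to 4 with 1 culture left out. *Adamts4* was called in 6 of 19 fits, with an adjusted p of 0.00886 to 0.575, and its call was lost with any 1 Ad-OSCAR culture, replicate 1 or 3 of 5-ASA or replicate 1 or 3 of Control left out. *Adamts5* was called in all 19 (highest adjusted p = 0.0192). *Adamts9* and *Adamts12* were each called in 17 of 19. In the same comparison *Adamts1* turned to -0.016 in TPM with either pseudocount, *Adamts6* to -0.06 without 5-ASA replicate 2 (leave-one-out range -0.06 to 0.21) and *Timp2* to -0.0442 in TPM with either pseudocount.

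Same-numbered cultures did not deviate together (correlations -0.0724 to 0.0402), so no pairing by number was seen. This check cannot tell whether a number marks a shared animal or day, which the labels do not say. With the replicate block 7, 3 and 7 genes were called in the 3 comparisons, and the call of *Adamts4* with 5-ASA was the one lost (adjusted p = 0.053, edgeR). Of the surrounding genes, whose settings were chosen after seeing the data, *Adamtsl5* and *Sdc1* with 5-ASA lost theirs. *Sdc1* was called in 5 of 19 fits, *Il1a* in 11 of 18, *Adamtsl5* in 12 of 19, and *Il6* and *Adamts10* in 13 of 19.

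Library totals alone moved the median log2 fold change of all genes to 0.149 for Ad-OSCAR against Control, with 6609 genes higher and 3907 lower against 5031 and 4952 in the main analysis. For Ad-OSCAR + 5-ASA against Ad-OSCAR they gave 1057 higher and 2523 lower, and log2(TPM + 0.1) gave 560 and 1439, against 1598 and 1134. Leaving out Ad-OSCAR replicate 1 gave 1146 and 736, and leaving out 5-ASA replicate 1 gave 1213 and 721. The cause of these shifts was not tested. Depth limits *Adamts8*, *Adamts15* and *Adamts16*, which held 12 counts or fewer in each culture.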
